A study of Mus musculus with 2 samples.

Results

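The genes of sterol and fatty acid synthesis were examined on 2 Agilent expression arrays, 1 of S100A4-negative and 1 of S100A4-positive cells sorted from mouse Peyer's patches. The members were 36 listed enzymes and regulators, taken as every non-control probe that carried one of these gene names on both arrays. This gave 34 genes with 73 probes, of 24813 named genes with 43738 probes on the array. Acat2 and Sc4mol had no probe under those names. Msmo1, the present name of the methylsterol monooxygenase gene listed as Sc4mol, had probes of its own. It was not counted among the members, and its value is given beside theirs.

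Peyer's patches are the lymphoid follicles in the wall of the small intestine. Both groups came from C57BL/6 mice carrying an S100A4-GFP transgene, a fluorescent reporter named for S100A4, a calcium-binding protein of motile myeloid and mesenchymal cells. The patches were digested with dispase II, collagenase D and DNase I for 60 min, and cells were sorted into those with and those without S100A4. The age and number of the mice, whether cells of several mice were pooled and the promoter of the transgene are not given in the sources used here. Total RNA was amplified, labelled with Cy3 and hybridised to 60-base probes. Each group is 1 array, so no spread between samples and no test between groups could be had. The error beside a difference is that of the scanner software for single spots and covers no variation between animals or sorts.

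Cholesterol is built from acetyl-CoA by way of mevalonate, isoprenoid pyrophosphates, squalene and lanosterol. Fatty acids are built from the same acetyl-CoA by acetyl-CoA carboxylase and fatty acid synthase and then desaturated and elongated. Both routes are driven by the SREBP transcription factors. SCAP escorts SREBP to the Golgi for cleavage when sterols are low, and INSIG proteins hold SCAP back in the endoplasmic reticulum when sterols are high. Lymphocytes need these routes for the membranes of dividing cells, and macrophages also take up and export sterol.

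The probe of Scd1, the gene with the largest difference, is shown first, beside that of its closely similar neighbour Scd2. The capitals mark the longest run of letters that the 2 probes share, which is 6 bases. This compares the probes with each other only, and neither was compared with the transcript of the other gene. The Scd1 probe lies at chr19:44469387-44469446 on the minus strand of mm9 and the Scd2 probe at chr19:44381024-44381083 on the plus strand.
Scd1 probe: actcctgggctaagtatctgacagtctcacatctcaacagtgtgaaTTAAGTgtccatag
Scd2 probe: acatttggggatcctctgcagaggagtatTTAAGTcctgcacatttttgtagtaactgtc

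Most of the synthesis genes lay within 2-fold between the sorted populations. Scd1, Elovl7, Insig2 and Lss were at least 2-fold lower in S100A4-positive cells, and Fads1, Fads2 and Elovl5 were at least 2-fold higher. Of the other 27, 26 (76.5% of the 34) were measured on both arrays and within 2-fold, and Me1 has a bound under 2-fold, which does not place it. Of 15245 named genes detected on at least 1 array, 56.0% were measured on both and within 2-fold, 5.57% had a bound under 2-fold, 17.0% were at least 2-fold lower and 21.4% at least 2-fold higher. With the processing used, the members' shares were 11.8% lower and 8.82% higher, both below those backgrounds. These shares were not tested, and with 34 genes the lower one is not set apart from its background. The lower share did not stay below its background under all settings. Under another background correction the count of lower members was also 4, beside 11.5% of named genes. The set was not the same, as Fasn took the place of Elovl7. At 4-fold with the processing used, Scd1 and Elovl7 were lower and Fads1 was higher, against 5.0% of named genes lower and 9.89% higher. The median log2 difference, positive minus negative, was -0.050 over the 34 genes and 0.02 over all named genes.

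Levels are given as relative signal, the processed signal divided by the 75th percentile of its array, and differences as log2 of the positive over the negative value. They therefore compare each gene with the bulk of its own array. With no scaling all genes moved by -0.63 log2. Set on the labelled spike-in RNA, whose 7 E1A probes were 3.69-fold brighter on the positive array, they moved by -2.52 in all. On the spike-in scale Fads1, Fads2 and Elovl5 had log2 differences of -0.14, -0.53 and -1.50, so "higher" holds for them on the 75th-percentile scale and not on that one. Differences are relative to that shift throughout. In bulk RNA of sorted cells, fewer cells of a type and less RNA per cell cannot be told apart.

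**Figure D1:**
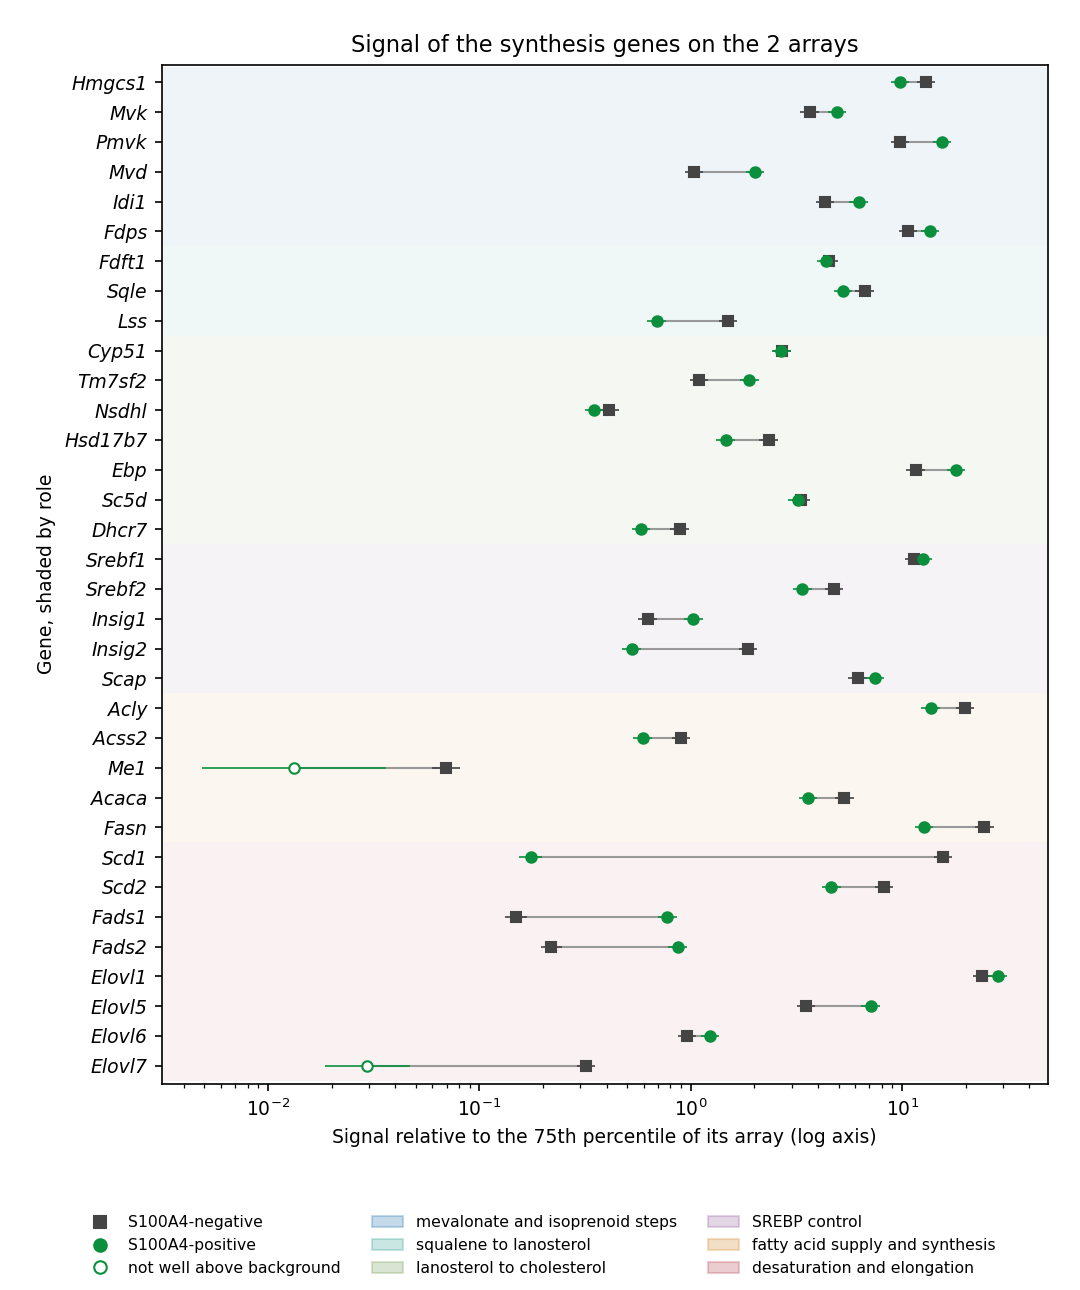
Relative signal (log axis, in multiples of the array's 75th percentile) of the 34 synthesis genes in S100A4-negative and S100A4-positive cells, 1 array each, ordered by their place in the pathway; error bars are the scanner error of the spot, shading marks the role group, and open points are values not well above background. The paired points of most genes lie close together, while Scd1 runs from 15.6 in the negative to 0.175 in the positive cells.

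Marker genes of several cell types also differed between the arrays. S100a4 itself had a relative signal of 2.37 in the negative and 415 in the positive cells, in the direction of the sort. Markers of B cells were at least 2-fold lower in S100A4-positive cells at 10 of 10 detected genes, with a summed relative signal of 490 against 21.5. Germinal centre genes (6 of 6 lower, 46.5 against 9.28), genes of dividing cells (10 of 10 lower, 109 against 11.8) and most T cell genes (5 of 7 lower, 110 against 16.3) moved the same way. The remaining T cell genes, Cd4 and Cd8a, were within 2-fold, with differences of 0.27 and 0.32. Epithelial genes also did, with 11 of 12 enterocyte genes lower (50.5 against 6.59) and 5 of 5 goblet cell genes lower (29.7 against 0.234). Macrophage genes were higher at 10 of 10 (9.0 against 576) and dendritic cell genes at 5 of 5 (6.83 against 81.9). Endothelial genes were higher at 3 of 4 (0.605 against 3.25), and fibroblast genes were higher at 2 and lower at 1 of 5 (0.979 against 2.10). Pax5 of B cells and Krt19 and Alpi of epithelium failed the background flag in the positive cells, and Fcgr1, Mertk and Clec9a failed it in the negative cells. The part of these marker differences in each result below was not tested.

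The mevalonate and isoprenoid enzymes were expressed in both populations, none of the 6 past 2-fold, with a median of 0.48. Hmgcs1, the synthase that makes HMG-CoA, had a relative signal of 13.0 in the negative and 9.80 in the positive cells. Its log2 difference was -0.40 ± 0.20 (scanner error), the one value below 0 in this group. The mevalonate kinase Mvk stood at 3.65 and 4.91, a difference of 0.43, and the phosphomevalonate kinase Pmvk at 9.78 and 15.4, a difference of 0.66. Mvd, which decarboxylates mevalonate pyrophosphate to the first isoprenoid unit, stood at 1.04 and 2.02. Its difference of 0.96 lay within its scanner error of 0.20 of the 2-fold line. The isomerase Idi1 was measured at 4.30 and 6.23 (0.53) and the farnesyl pyrophosphate synthase Fdps at 10.69 and 13.6 (0.34).

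On the steps from squalene to lanosterol, Lss was lower and the other enzymes were within 2-fold. Fdft1, which joins farnesyl units into squalene, had relative signals of 4.52 and 4.37, a difference of -0.050. Squalene epoxidase, Sqle, stood at 6.64 and 5.24, a difference of -0.34. A dim Ensembl transcript probe of Sqle, seen on the positive array only, went the other way, at least 2.54-fold higher, and with the median over probes Sqle counted as higher. Lanosterol synthase, Lss, which closes the sterol ring system, stood at 1.496 in the negative and 0.690 in the positive cells. This is 2.17-fold lower, a log2 difference of -1.12 ± 0.21, within that error of the 2-fold line. The other Lss probes, both against RefSeq mRNA records and both detected on both arrays, gave -1.49 and -1.96, further from 0. The 3 probes lie at chr10:76015992-76016051, chr10:76016592-76016651 and chr10:76019513-76019572 (mm9, plus strand), and the second of these gave the gene's value.
Lss probe 1: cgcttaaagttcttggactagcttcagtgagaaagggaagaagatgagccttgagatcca
Lss probe 2, used: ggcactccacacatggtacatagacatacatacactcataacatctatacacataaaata
Lss probe 3: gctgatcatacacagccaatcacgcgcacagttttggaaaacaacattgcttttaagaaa

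None of the 7 enzymes between lanosterol and cholesterol passed 2-fold, and their median was -0.051. The lanosterol demethylase Cyp51 had nearly the same relative signal in both populations, 2.69 and 2.68, at the probe used, and its dimmer RefSeq mRNA probe gave a difference of 0.84. The sterol C14 reductase Tm7sf2 (1.097 and 1.89, difference 0.79) and the sterol isomerase Ebp (11.6 and 17.9, 0.63) had higher values in the positive cells. Hsd17b7, a ketosteroid reductase (2.33 and 1.46, -0.67), and Dhcr7, the last reductase before cholesterol (0.886 and 0.582, -0.61), had lower ones. The decarboxylating dehydrogenase Nsdhl (0.412 and 0.350, -0.24) and the desaturase Sc5d (3.31 and 3.20, -0.051) lay closer to 0 at the probes used. A cDNA clone probe of Nsdhl, seen on the negative array only, was at least 2.67-fold lower, and with the median over probes Nsdhl counted as lower. Msmo1, which removes methyl groups between Cyp51 and Nsdhl and is not among the 7, stood at 7.87 and 15.9. This is 2.02-fold higher, a difference of 1.02 ± 0.20, past the 2-fold line but within that error of it. Its 3 probes lay between 0.17 and 1.02.

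Among the SREBP regulators Insig2 was lower in S100A4-positive cells, while the other 4 were within 2-fold. Srebf1, which encodes the SREBP that favours fatty acid genes, had relative signals of 11.4 and 12.5, a difference of 0.13. Srebf2, which encodes the SREBP that favours cholesterol genes, stood at 4.75 and 3.37, a difference of -0.49 at an Ensembl transcript probe. Its dimmer RefSeq mRNA probe gave -1.14. The escort protein gene Scap stood at 6.15 and 7.44, a difference of 0.27.

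The 2 Insig genes lay on opposite sides of 0. Insig1, itself a sterol-responsive SREBP target, stood at 0.625 and 1.03, a difference of 0.72. Insig2 stood at 1.87 and 0.525, 3.56-fold lower, a difference of -1.83 ± 0.21. The other Insig2 probes gave -2.07 and -1.17, so all 3 were past 2-fold. The first 2 of these overlap on chromosome 1 of mm9 (minus strand, chr1:123201085-123201144 and chr1:123201071-123201130) and share the 46 bases in capitals, so they are not separate evidence. The last lies at chr1:123203517-123203752, coordinates that run over more than the 60 bases of the probe.
Insig2 probe 1, used: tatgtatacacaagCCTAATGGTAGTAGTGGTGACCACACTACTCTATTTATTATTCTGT
Insig2 probe 2: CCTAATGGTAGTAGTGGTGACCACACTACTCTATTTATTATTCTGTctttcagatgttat
Insig2 probe 3: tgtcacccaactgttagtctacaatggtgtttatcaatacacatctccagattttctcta

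At the probes used, the genes that supply and build palmitate had lower values in S100A4-positive cells. Of the 5, 4 were measured on both arrays and were within 2-fold, and Me1 has only a bound. Their median was -0.60, and -0.58 with Me1 at its bound. Acly, which releases acetyl-CoA from citrate in the cytosol, had relative signals of 19.9 and 13.6, a difference of -0.54. Acss2, which makes acetyl-CoA from acetate, stood at 0.899 and 0.592, a difference of -0.60. The dimmer RefSeq mRNA probe of Acss2 gave 0.19. Acetyl-CoA carboxylase, Acaca, stood at 5.33 and 3.58, a difference of -0.58. Of its 7 probes 3 were detected, 1 of them dim and at 1.13, and a dim Acly probe gave 0.92. With the median over probes Acly stood at 0.19. Fatty acid synthase, Fasn, stood at 24.5 and 12.7, 1.92-fold lower, and its difference of -0.94 lay within its scanner error of the 2-fold line. Me1, the malic enzyme that supplies NADPH, stood at 0.0698 in the negative cells and was not well above background in the positive ones, which makes it at least 1.27-fold lower and does not place it on either side of the 2-fold line. At its measured difference it would count as lower, which would make 5 members lower. With genes seen on 1 array counted that way, 19.7% of all named genes were lower. A fold given as "at least" is the measured side over a floor on the other array, which is the lowest signal there that passed the background flag or, if brighter, the signal of the probe in question.

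The desaturases and elongases held 5 of the 7 genes past 2-fold, 2 lower and 3 higher among 8. Beside these counts stand 17.0% lower and 21.4% higher of all named genes. A group of 8 genes is too small to set its shares apart from that background. Of the 3 higher genes, Elovl5 lay at the 2-fold line, and the calls of Fads1 and Fads2 depended on the probe. Scd1, the stearoyl-CoA desaturase that makes oleate and palmitoleate, had a processed signal of 6938 in the negative and 50.2 in the positive cells. Its relative signals were 15.6 and 0.175, a level 89.0-fold lower in the positive cells and a difference of -6.48 ± 0.23. It was still well above background on the positive array. Under another background correction, normexp, it was 37.7-fold lower (-5.24), so the size of the difference depends on the correction. Scd2, the isoform known for its expression in brain and many other tissues, stood at 8.19 and 4.62, a difference of -0.83, within 2-fold. A second probe under the name Scd1, on the opposite strand and against a cDNA clone, was not well above background on either array. Beside the Scd1 difference stand the lower sums of the B cell, T cell, dividing cell and epithelial markers given above, and their part in it was not tested.

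**Figure D2:**
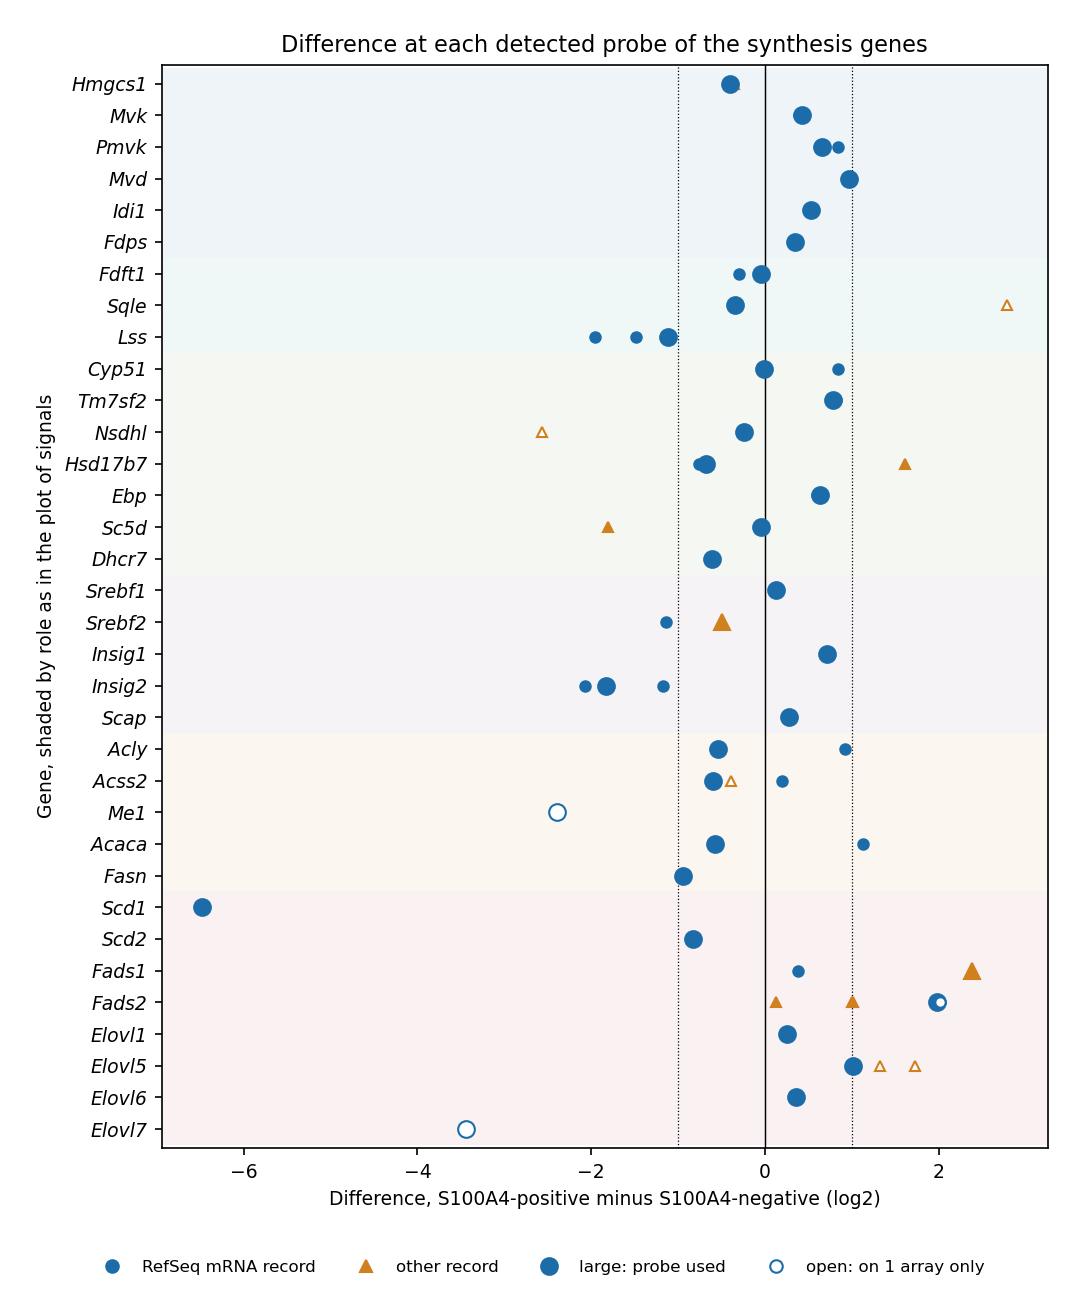
Log2 difference, positive minus negative, of each detected probe of the synthesis genes (filled where well above background on both arrays, open where on 1 only and then drawn at the measured value, not the bound; circles for RefSeq mRNA records, triangles for other records); the probe used for the gene is drawn larger. All 3 Insig2 and all 3 Lss probes lie below -1, whereas the probes of Fads1 and Fads2 spread from 0.12 to 2.38.

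The front-end desaturases Fads1 and Fads2, which introduce double bonds into polyunsaturated fatty acids, were higher at the probes used, but their probes disagreed. Fads2 had relative signals of 0.219 and 0.868, 3.96-fold higher, a difference of 1.99 ± 0.22. Its 4 probes seen on both arrays ranged from 0.12 to 1.99, and the fifth, seen on the positive array only, was at least 2.39-fold higher. Fads1 stood at 0.149 and 0.775 at a probe against a cDNA clone, 5.20-fold higher, a difference of 2.38 ± 0.22. At its RefSeq mRNA probe it stood at 0.282 and 0.366, a difference of 0.38, so with RefSeq mRNA probes alone, an alternative chosen after seeing the data, Fads1 was within 2-fold. The Fads1 probes lie at chr19:10261805-10261864 and chr19:10270530-10270589 (mm9, plus strand). No annotation of that build was used to place them in exons or introns. The Fads2 probe used has coordinates chr19:10138750-10139180 on the minus strand, a span longer than the probe.
Fads1 probe, cDNA clone, used: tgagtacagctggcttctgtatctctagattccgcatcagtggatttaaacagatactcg
Fads1 probe, RefSeq mRNA: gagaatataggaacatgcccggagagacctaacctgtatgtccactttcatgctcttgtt
Fads2 probe, used: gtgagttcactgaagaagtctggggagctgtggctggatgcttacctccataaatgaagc

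Of the elongases, which lengthen fatty acids in steps, Elovl5 was higher, Elovl7 was lower and the others were within 2-fold. Elovl1, for saturated very long chains, had relative signals of 24.0 and 28.5, a difference of 0.25. Elovl6, which extends palmitate to stearate, stood at 0.959 and 1.23, a difference of 0.36. Elovl5, for polyunsaturated chains, stood at 3.51 and 7.09, 2.02-fold higher, and its difference of 1.01 lay within its scanner error of the 2-fold line. Its other detected probes, seen on the positive array only, were at least 2.22-fold and 3.32-fold higher. Elovl7, with 1 probe, stood at 0.319 in the negative cells and was not well above background in the positive cells. This makes it at least 5.83-fold lower with the processing used. Under the normexp correction the bound was 1.95-fold, which does not place it on either side of the 2-fold line.

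Where a gene had several probes they mostly gave the same side of the 2-fold line. Of 73 member probes, 56 were well above background on both arrays, 4 on the negative array only, 4 on the positive array only and 9 on neither. Among the 18 genes with at least 2 probes detected on both arrays, the probes lay within 1 log2 of each other in 12, and the median spread was 0.82. In 0 of the 18 did probes pass 2-fold in both directions. Of the 30 detected probes that did not give their gene's value, 3 of 19 against RefSeq mRNA records and 5 of 11 against other records departed from it by at least 1 log2. Examples are an Ensembl probe of Hsd17b7 at 1.62 and a model-transcript probe of Sc5d at -1.81, both dim beside the probe used for the same gene.

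The upstream sequence of the genes was read from RefSeq promoters of GRCm38.p6, 250 bases before to 50 after the start. These matched 28 of the 34 members. Fdps, Fdft1, Sqle, Scd1, Scd2 and Fads1 had no match, so Scd1 and Fads1 are missing from the counts of lower and higher members. The motifs searched on both strands were the sterol regulatory element TCACNCCAC, the site SREBP binds, the CCAAT box CCAAT, the site of its partner NF-Y, and the E-box CACGTG. The CCAAT box was in 23 of the 28 members (82.1%), against 37.4% of all 32851 promoters and 41.1% of genes. It was in 2 of 3 lower members, 1 of 2 higher members and 20 of 23 members within 2-fold, so members on each side of the 2-fold line held it. The E-box was in 6 of 28 (21.4%), against 7.15% of promoters and 8.09% of genes. The sterol regulatory element, in these letters, was in 1 of 28 (3.57%), Hmgcs1, against 1.24% of promoters and 1.44% of genes. A match is a description of letters and not a site in these cells.

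The promoter of Hmgcs1 is shown because it holds all of these but the E-box, and that of Lss because Lss was lower while its pathway neighbours were within 2-fold. Capitals mark the matches, with ATTGG the CCAAT box on the other strand. Hmgcs1 (chr13:119690101-119690400, plus strand) has the sterol regulatory element 137 bases before the start and CCAAT boxes 237, 176 and 45 bases before it and 10 bases after it. Lss (chr10:76531355-76531654, plus strand) has 1 CCAAT box, 62 bases before the start.
Hmgcs1 promoter: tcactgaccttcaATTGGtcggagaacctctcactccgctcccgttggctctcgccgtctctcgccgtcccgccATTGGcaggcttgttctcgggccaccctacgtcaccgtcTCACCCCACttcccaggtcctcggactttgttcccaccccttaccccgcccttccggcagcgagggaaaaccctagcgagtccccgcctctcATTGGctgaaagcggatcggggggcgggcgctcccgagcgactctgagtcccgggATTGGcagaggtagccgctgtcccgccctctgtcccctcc
Lss promoter: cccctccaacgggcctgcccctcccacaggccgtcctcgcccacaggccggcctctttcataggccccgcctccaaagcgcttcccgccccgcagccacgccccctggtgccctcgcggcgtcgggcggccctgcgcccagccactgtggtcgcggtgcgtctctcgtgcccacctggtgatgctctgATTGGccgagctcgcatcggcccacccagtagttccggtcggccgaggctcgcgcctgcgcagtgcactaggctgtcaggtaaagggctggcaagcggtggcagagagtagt

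The other genes of lipid metabolism were described in companion lists, whose counts stand beside the 17.0% lower and 21.4% higher of all named genes. Among 26 detected genes of other synthesis enzymes and regulators, 3 were lower (11.5%), 5 higher (19.2%) and 18 within 2-fold (median 0.35). Mid1ip1, an activator of acetyl-CoA carboxylase, had a log2 difference of -1.74 and Aacs, a cytosolic acetoacetyl-CoA synthetase, one of -1.14. Acsl1, which activates long-chain fatty acids, was higher by 1.49, and Fads3 and Hacd4, a desaturase relative and an elongation dehydratase, by 3.20 and 3.81. Acacb, the mitochondrial carboxylase, was higher by 1.09, with probes from -0.95 to 1.48. Acsl3 was seen on the negative array only, at least 4.61-fold lower, and Idi2 on the positive array only, at least 13.9-fold higher.

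Genes of sterol uptake, transport and efflux were higher at 8 of 19 (42.1%), lower at 3 (15.8%) and within 2-fold at 7, with 1 bound under 2-fold (median 0.40). Nr1h3, the sterol-sensing nuclear receptor LXR alpha of macrophages, had relative signals of 0.151 and 5.43, a difference of 5.17. The lipoprotein receptors Lrp1 and Scarb1 differed by 4.26 and 1.70 (with other probes at 2.12 and 3.12), and the cholesteryl ester hydrolase Nceh1 by 2.05. Lower were Mylip, the ligase that degrades the LDL receptor (-2.28), Osbp, an oxysterol-binding transporter (-1.71), and the sterol carrier Stard4 (-1.30). The second probes of Osbp and Stard4 gave -0.17 and -0.38, within 2-fold. These lists are set beside macrophage markers that summed to 9.0 and 576, and the part of that in them was not tested.

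Oxysterol genes were higher at 4 of 5 (median 2.33), which included Hsd3b7 by 2.33 and the sterol hydroxylase Cyp27a1 by 2.16. Ch25h and Cyp7b1, which both act in making oxysterols that guide B cells, were seen on the positive array only, at least 9.31-fold and 25.7-fold higher. Genes of glycerolipid synthesis and storage were higher at 4 of 13 (30.8%, not far from the 21.4% of all named genes) and lower at 0 (median 0.39). Dgat1 and Dgat2, which make triglyceride, were higher by 4.47 and 2.19, the lipid droplet coat gene Plin2 by 3.77 and the fatty acid transporter Cd36 by 1.40. Fatty acid oxidation genes were within 2-fold at 13 of 18, with 2 bounds under 2-fold (median 0.0054), with Cpt1a and Cpt2, the mitochondrial carnitine transferases, lower at -1.92 and -1.34 and the nuclear receptor Pparg higher at 2.09. A second Cpt2 probe gave -0.52. Of 13 genes that use isoprenoids, 3 were lower (23.1%, beside 17.0% of all named genes) and 0 higher (median -0.46). The lower genes were the ubiquinone side chain synthase genes Pdss1 (-1.30) and Pdss2 (-1.45) and the farnesyltransferase subunit Fntb, at least 3.70-fold lower. The second Pdss1 probe gave -0.60, within 2-fold.

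**Figure D3:**
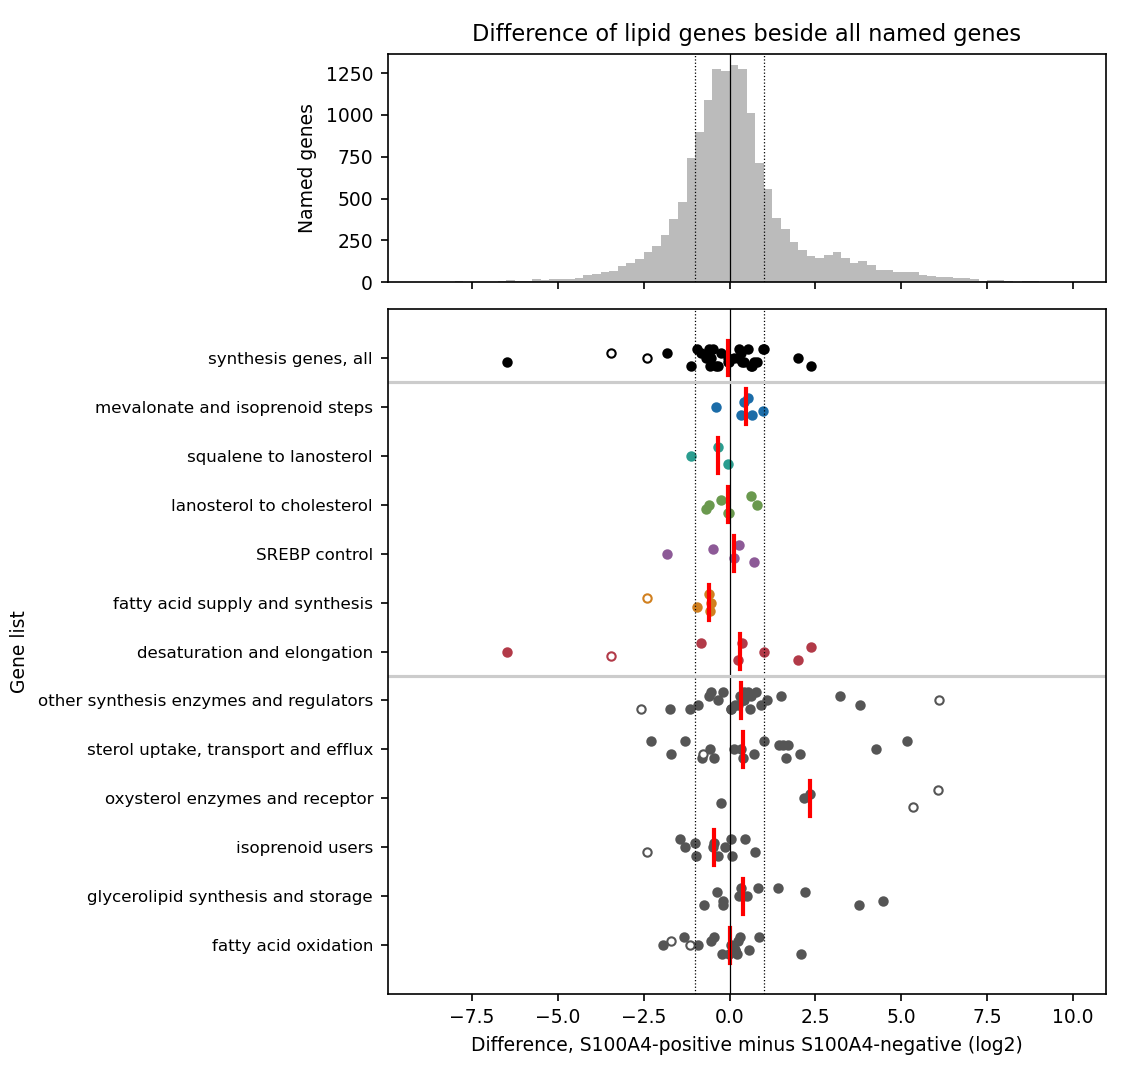
Log2 difference, positive minus negative, of every detected gene in the synthesis role groups and companion lists (lower panel; each point is 1 gene, open where seen on 1 array only and then drawn at its measured value, not its bound; red bars are medians), under a histogram of all named genes. The synthesis groups lie mostly between -1 and 1, except desaturation and elongation, with 3 of 8 genes within 2-fold and a range from -6.48 to 2.38. The oxysterol list has its median at 2.33.

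**Figure D4:**
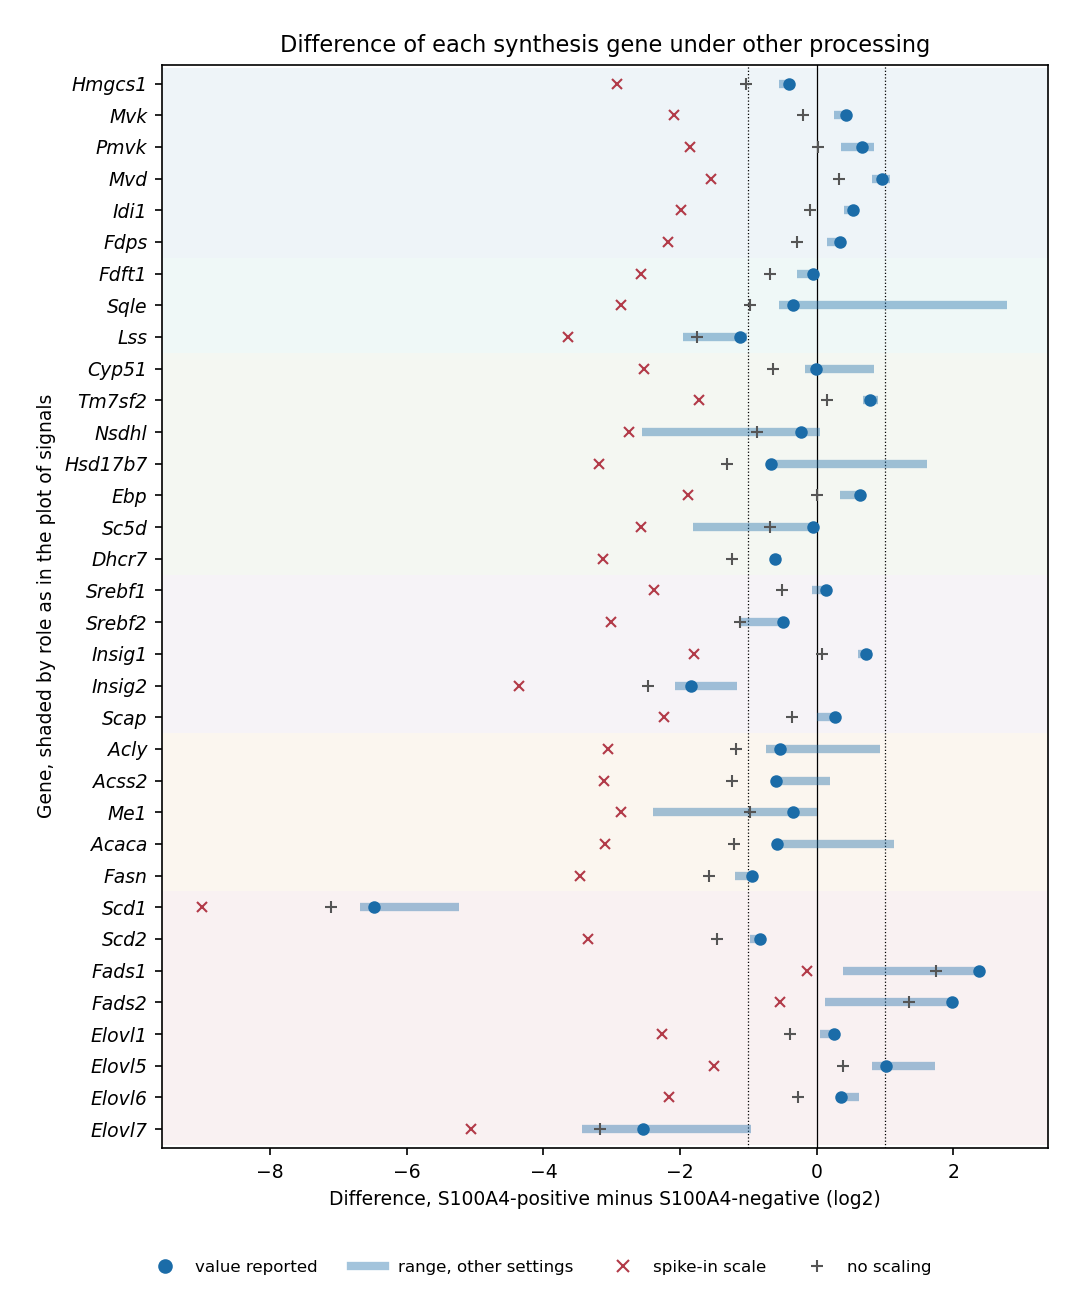
Log2 difference of each of the 34 genes as reported (points) and its range over the alternative processing settings (lines), with the spike-in scale (crosses) and no scaling (plus signs) drawn apart. Scd1 and Insig2 stay below -1 over their range, and the lines of Fads1 and Fads2 reach below 1.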

How the data were processed

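Cy3-labelled total RNA of 1 S100A4-negative and 1 S100A4-positive sample was measured on 2 arrays of Agilent design 74809. The deposited scanner tables hold 1 processed signal intensity per spot, background-subtracted by the software and not normalized between arrays, per the file headers; these name Feature Extraction 10.7.1.1, and the submitters' processing notes 9.5.1.1. Other deposited values, the flags for background and outliers, were taken as given, and the series' deposited value table of intensity was an alternative only. Of 59305 non-control spots, 53.3% and 52.3% were well above background on the negative and positive array, and 138 and 80 spots flagged as outliers were dropped. Log2 signals were centred on the 75th percentile, 445.9 and 287.3 (Python 3.11.15, pandas 2.3.3; limma 3.58.1 for alternatives). A gene took its probe with the highest mean signal of those that passed the background flag on either array, and a gene seen on 1 array counted at its bound. Of the probes, 12867 stayed unnamed. Scripts were tested on simulated data.

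With 1 array per group no test was possible, and the number of arrays limits the precision. Median scanner error was 0.20 log2. Named genes are all members, S100a4, and from each companion list up to 4 genes each way with the largest difference (up to 2 each way if seen on 1 array, or for markers); Msmo1, Scd3 and Scd4 were added after their values were seen. The members and lists were chosen with earlier results of these data known.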

Additional observations from a re-analysis of the deposited data

How the results depend on the processing

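Scd1, Insig2 and Lss stayed at least 2-fold lower under all alternatives run at the 2-fold line. On the spike-in scale 32 members were at least 2-fold lower and 0 higher (median -2.57), beside 83.2% and 3.87% of all named genes, and Elovl5, Fads1 and Fads2 reversed to -1.50, -0.14 and -0.53. With no scaling 13 were lower (median -0.68), beside 35% of all named genes, and Elovl5 was within 2-fold (0.38). Taking each gene's probe with the largest difference gave 7 lower and 6 higher (median 0.31), beside 20.6% and 27.1% of all named genes. The smallest gave 4 lower and 1 higher, beside 12.5% and 19.6%. The median over probes gave a median of 0.16. At 4-fold 2 were lower and 1 higher, beside 5.0% and 9.89% of all named genes. With normexp background correction 4 were lower and 2 higher, beside 11.5% and 14.9% of all named genes. Elovl5 was then at 0.81 and the bound of Elovl7 at -0.96, and Scd1 moved from -6.48 to -5.24. With genes seen on 1 array at their measured difference 5 were lower, with Me1 added, beside 19.7% of all named genes. Fasn passed 2-fold, as lower, under quantile, loess and normexp settings and in the deposited value table. Mvd passed it, as higher, under the loess setting (1.07). Srebf2 passed it, as lower, with RefSeq mRNA probes alone, a setting chosen after seeing the data. No paired analysis was possible because each group holds 1 array. Spots near background limit Me1, Elovl7, Scd1, Fads1 and Fads2, whose signals were dim on at least 1 array.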

Other observations

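The stearoyl-CoA desaturase genes lie together over 181 kb of chromosome 19 (mm9), and their measured differences were not alike. Scd1 differed by -6.48 and Scd2 by -0.83, while Scd4 differed by 0.92. Scd3 differed by 0.41 at the probe used, and a dimmer Scd3 probe, seen on the negative array only, was at least 4.74-fold lower. Scd3 and Scd4 are not among the listed genes and were looked at after their values were seen. These genes are similar in sequence, so signal at their probes could come from a relative, and the values of Scd3 and Scd4 are uncertain for that reason.

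On the same chromosome the fatty acid desaturase genes lie over 138 kb. Their values were 3.20 for Fads3, 1.99 for Fads2 and 2.38 for Fads1 at the probes used, on the 75th-percentile scale. The second Fads3 probe, seen on the positive array only, was at least 12.3-fold higher, and the RefSeq mRNA probe of Fads1 gave 0.38. The other Fads2 probes seen on both arrays gave 0.12, 1.02 and 1.00. A further Fads2 probe, seen on the positive array only, was at least 2.39-fold higher.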
